A study of Mus musculus with 4 samples.

Results

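Large ribosomal subunit assembly genes were described in NIH/3T3 cells, an immortalised line of mouse fibroblasts. The 54 genes were chosen by symbol as factors that build the large subunit, and all 54 were found, with 84 tested transcripts, among 34200 transcripts of 21945 genes. KD cells received 2 *Setd2* siRNAs and WT cells received Scrambled siRNA, each at 10 nM for 48 h, and polyadenylated RNA was sequenced in 2 KD and 2 WT libraries. The product of *Setd2* is the enzyme that trimethylates lysine 36 of histone H3. The labels do not say whether the 2 libraries of a group came from separate cultures.

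The values used here are the authors' mean and variance over the KD and WT libraries together. Values of single libraries and the authors' own comparison of KD with WT were not used here, so no difference between KD and WT is given for any gene, and the depth of each library is unknown. The *Setd2* transcript had a mean level of 1844 normalised estimated counts and a spread of 1.15 on the log2 scale, wider than that of 99.2% of the 18808 transcripts with at least 100 counts. Spread is the square root of the authors' variance over the libraries. It holds the difference between KD and WT as well as the difference between replicates, which cannot be told apart, and it carries no direction. The knockdown was therefore not checked for each library.

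The large subunit is assembled in the nucleolus around the ribosomal RNA that becomes its core. Assembly factors bind the growing particle in turn, fold and cut the RNA, place ribosomal proteins, and leave as the particle moves through the nucleoplasm to the cytoplasm. Helicases, GTPases and a giant ATPase drive these steps, and growing cells such as cultured fibroblasts make many new ribosomes.

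Markers of fibroblasts, the labelled cell type, were abundant. All 10 fibroblast markers had tested transcripts, with a summed length-scaled level of 15327 ppm, and *S100a4* was the most abundant at 10038 ppm. The length-scaled level is the mean level divided by the annotated transcript length and is given in ppm, parts per 1000000 of the sum over all matched transcripts. The summed length-scaled level of the other lists was 0.807 ppm for 4 epithelial markers, 0.397 for 3 endothelial markers, 6.43 for 3 immune markers and 1.06 for 2 muscle markers. *Cd68*, at 6.28 ppm, held most of the immune sum, while *Ptprc* was at 0.140 and *Adgre1* at 0.0091. *Epcam*, *Krt18* and *Myog* were not among the tested transcripts.

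Most members were expressed above the median protein-coding gene. The median length-scaled level of the 54 members was 56.0 ppm, against 8.19 for 14470 protein-coding genes, and the median percentile of the members among these genes was 88.8. Of the 54 members, 39 lay above the 80th percentile of protein-coding genes. By annotated length, *Urb1* and *Mdn1* were the 2 members below the median protein-coding gene. Without division by length both lay above it, by 0.92 and 1.91 on the log2 scale. In the order of length-scaled levels, 9 of 53 neighbouring pairs differed by more than the larger spread of their most abundant transcripts, among them the step from *Npm1* to *Ncl* and the steps from *Ncl* to *Nsa2* and from *Nsa2* to *Gnl3*. The other 44 neighbouring pairs did not differ beyond their spread, so the order in the middle of the range is not resolved. The spread describes single libraries and the most abundant transcript, and is not an error of the mean level of a gene. Here and below, levels beyond the spread, within it or not told apart are therefore descriptions and not tests.

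**Figure D1:**
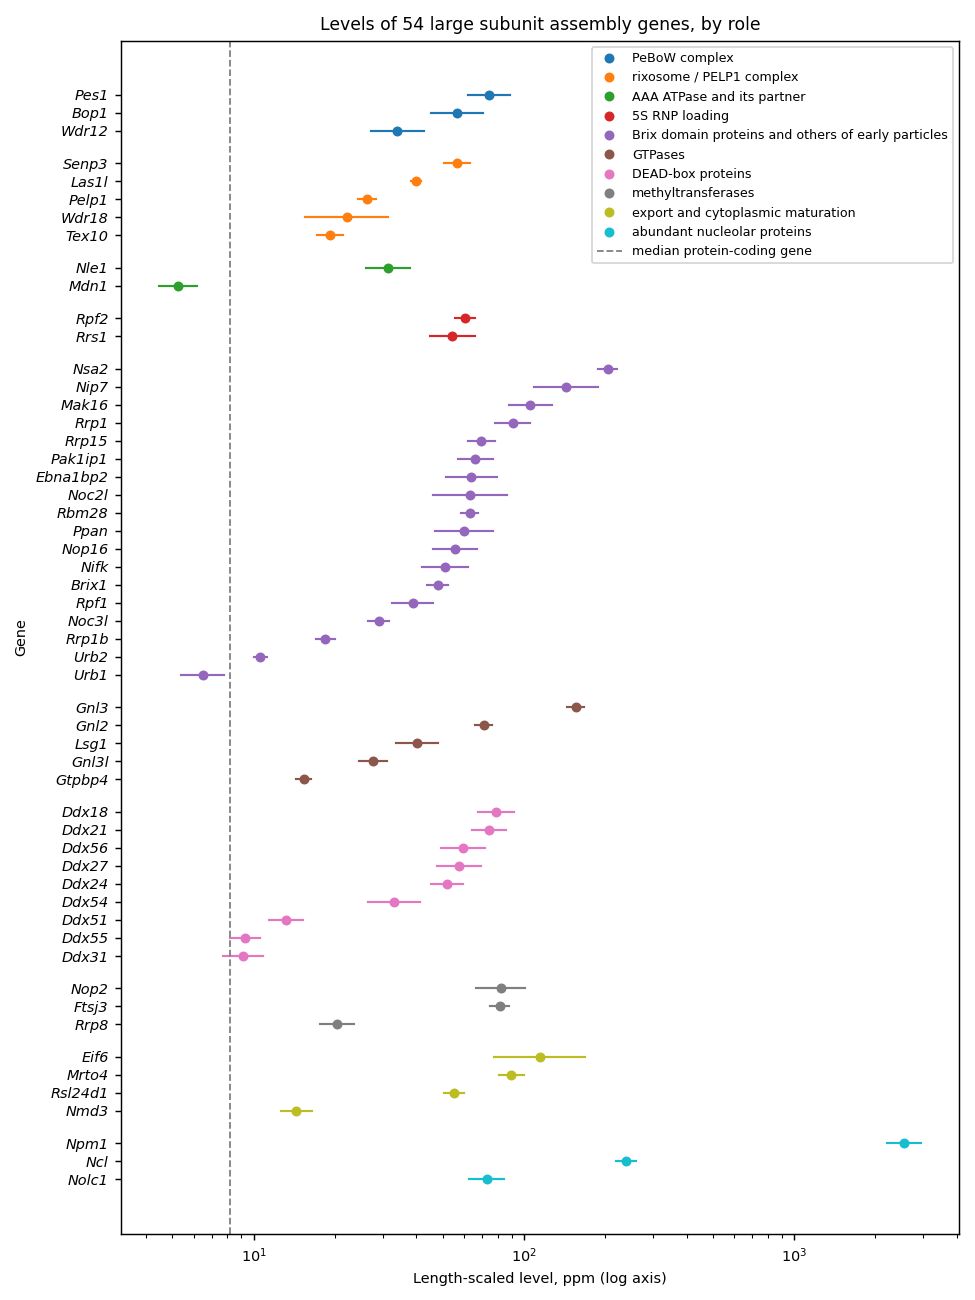
Length-scaled level ppm of each member on a log axis, as a mean over KD and WT libraries, with members grouped by role and bars of 1 spread of the most abundant transcript to each side. The dashed line is the median protein-coding gene at 8.19 ppm, and *Npm1* at 2551 stands apart from all other members.

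*Npm1* and *Ncl*, of the abundant nucleolar proteins, had the highest levels of the members by length, and *Nolc1*, of the same group, was 15th in order. *Npm1* encodes nucleophosmin, a histone and ribosomal protein chaperone of the outer nucleolus, and its 4 transcripts summed to 142057 normalised estimated counts, or 2551 ppm by length. *Ncl* encodes nucleolin, which binds ribosomal RNA precursors, and its transcript had 89315 counts and 238.2 ppm. The annotated *Ncl* transcript is 8202 bases long with 2121 coding bases, which lowers its level by length. *Nolc1* encodes a phosphoprotein that escorts small nucleolar ribonucleoproteins, and its length-scaled level was 72.8 ppm. The 3 genes thus covered a wide range, and each step between them was larger than their spreads, which lay between 0.12 and 0.21 on the log2 scale.

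*Npm1* transcripts differed in their coding ends, which are shown because the 3 main isoforms were close in abundance. ENSMUST00000101375.4 held 40.1% of the length-scaled level of the gene, ENSMUST00000109354.9 held 30.3% and ENSMUST00000075641.9 held 28.8%, while ENSMUST00000093201.12 held 0.790%. By counts the lead turned, with 38.6% for ENSMUST00000075641.9, 31.8% for ENSMUST00000101375.4 and 28.7% for ENSMUST00000109354.9. The gene lies on the minus strand of chromosome 11 in GRCm38. In the sequences of the GENCODE transcripts below, lower case marks coding bases shared by the 3 isoforms and capitals mark the coding end of each, without the stop codon.
ENSMUST00000101375.4, chr11:33155342-33155431, 90 bases: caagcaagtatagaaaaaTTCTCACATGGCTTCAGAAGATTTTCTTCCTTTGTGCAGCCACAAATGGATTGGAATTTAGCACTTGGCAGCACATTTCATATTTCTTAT
ENSMUST00000109354.9, chr11:33155215-33155220, 6 bases: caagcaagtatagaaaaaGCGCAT
ENSMUST00000075641.9, chr11:33153986-33154060 joined to chr11:33152817-33152852, 75 and 36 bases: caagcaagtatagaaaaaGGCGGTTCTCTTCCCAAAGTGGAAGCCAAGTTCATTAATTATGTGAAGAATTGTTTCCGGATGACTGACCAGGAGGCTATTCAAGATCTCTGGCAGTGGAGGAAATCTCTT

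The 3 coding ends diverge at coding base 766. The isoform ending in 6 bases had the widest spread, 0.40 on the log2 scale, against 0.21 for the isoform ending in 90 bases and 0.15 for the isoform with the 75 and 36 bases. ENSMUST00000093201.12 lacks 84 coding bases at chr11:33156664-33156747 that the other transcripts hold. Much of the *Npm1* sequence is shared with other genes. Of the 31-base words of ENSMUST00000101375.4, 33.2% were found in no other gene, and for ENSMUST00000075641.9 the share was 54.5%. *Gm9118* shared 50.3% of the words of ENSMUST00000101375.4 and was itself listed with 2567 counts, and *Gm14681* shared 22.9% of them and was listed with 6545 counts. How the authors' counting split reads between *Npm1* and these genes was not tested, so the level of *Npm1* and its isoform shares are given as uncertain. The technical variance of the 3 main isoforms was 0.680%, 0.141% and 0.361% of the variance over the libraries. These values belong to ENSMUST00000101375.4, ENSMUST00000109354.9 and ENSMUST00000075641.9 in turn, and they did not rise or fall steadily with the shares. Technical variance holds counting error and uncertainty of read assignment together. It therefore does not measure how reads were split between genes.

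*Nolc1* transcripts differed by single groups of 3 coding bases. ENSMUST00000225780.1 held 54.8% of the length-scaled level, ENSMUST00000223728.1 held 30.5% and ENSMUST00000165017.1 held 14.8%. The windows show, in capitals, the 3 bases that ENSMUST00000223728.1 lacks and the 3 bases found in ENSMUST00000165017.1 and in neither of the others, on the plus strand of chromosome 19.
ENSMUST00000225780.1, chr19:46078873-46078875: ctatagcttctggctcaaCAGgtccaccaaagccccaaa
ENSMUST00000165017.1, chr19:46079908-46079910: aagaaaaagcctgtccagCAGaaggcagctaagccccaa

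Both windows carry the same 3 letters. The *Nolc1* isoforms also differ in annotated length, with 2978 bases in ENSMUST00000225780.1 and 3523 in ENSMUST00000223728.1, so their shares do not rest on the 3 bases alone. Their spreads were 0.21, 0.18 and 0.24 on the log2 scale in the order given above.

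**Figure D2:**
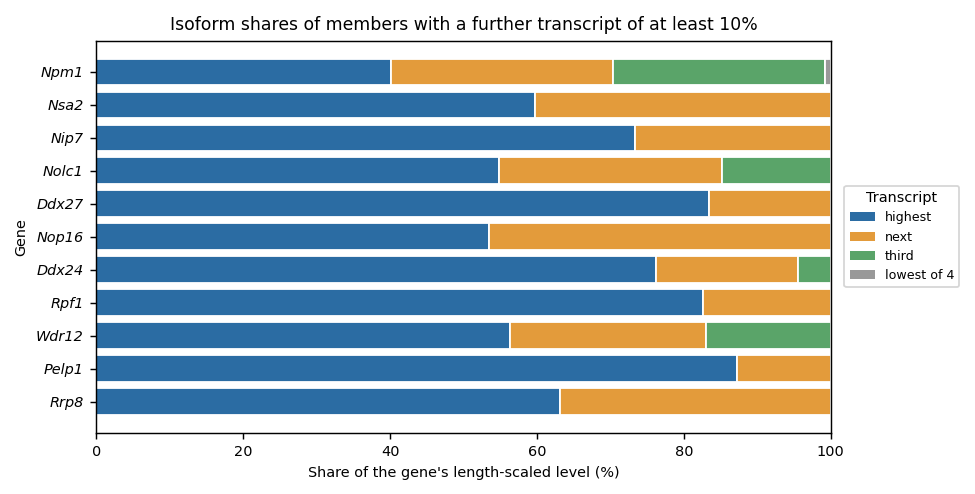
Share of each gene's length-scaled level held by its tested transcripts, in percent, for the 11 members whose second transcript held at least 10%. *Npm1* is split over 3 transcripts of 28.8% to 40.1%, while the highest transcript of *Pelp1* holds 87.2%.

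Among all members, 30 had a single tested transcript and 24 had several. In 11 of the 24, the second transcript held at least 10% of the length-scaled level. The annotation lists 301 transcripts for the 54 genes, of which 84 were tested. All 84 tested transcripts were protein-coding. By counts in place of length-scaled levels, 49 of 54 members had the same leading transcript, and the lead turned in *Npm1*, *Nsa2*, *Nip7*, *Nop16* and *Wdr12*.

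The PeBoW complex joins Pes1, Bop1 and Wdr12 and acts in the cutting of the precursor between the RNAs of the large subunit. The length-scaled level was 74.5 ppm for *Pes1*, 56.5 for *Bop1* and 34.0 for *Wdr12*. The difference between *Pes1* and *Bop1* was 0.40 on the log2 scale, larger than the wider spread of 0.32, and that between *Bop1* and *Wdr12* was 0.73. The second difference rests on the division by annotated length: it was -0.01 without division. By coding length *Wdr12* was higher than *Bop1*, beyond the spread. *Wdr12* had 3 tested transcripts with the same 1269 coding bases. Its shares by length were 56.3%, 26.7% and 17.0%. The third of these, ENSMUST00000027173.14, is annotated with 10012 bases and held 40.7% of the counts, so the isoform order of *Wdr12* depends on length. *Pes1* had a second transcript with 12 further coding bases at chr11:3973437-3973448, shown in capitals, and that transcript held 1.48% of the level.
ENSMUST00000109985.7: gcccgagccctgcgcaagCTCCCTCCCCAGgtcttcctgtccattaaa

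The PELP1 complex, also named rixosome, brings the endonuclease Las1l, the scaffold Pelp1, the SUMO protease Senp3 and the partners Wdr18 and Tex10 to the particle. *Senp3* was highest with 56.6 ppm and *Tex10* lowest with 19.2 ppm by length. *Las1l* was at 39.8, *Pelp1* at 26.3 and *Wdr18* at 22.1 ppm. *Wdr18* did not differ from *Pelp1* or *Tex10* beyond its own spread of 0.51 on the log2 scale by annotated length. By coding length it was higher than *Pelp1* by 1.29, than *Tex10* by 1.64 and than *Las1l* by 0.59 on the log2 scale, each beyond that spread, and it lay 0.20 below *Senp3*, within the spread. *Las1l* had the narrowest spread among the most abundant transcripts of the members, 0.06 on the log2 scale. A short *Pelp1* model of 562 bases, ENSMUST00000135148.1, held 12.8% of the gene by length and 2.35% by counts, with a mean of 86.8 counts.

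The ATPase Mdn1 pulls factors from the particle with the help of its partner Nle1. *Mdn1* was the lowest member by length, with 5.26 ppm, and *Nle1* was at 31.3 ppm. The *Mdn1* transcript has 102 exons, 17970 bases and 16767 coding bases on chromosome 4 (32657119 to 32775207, plus strand). Its mean level before division by length was 4284 counts. Between *Mdn1* and *Nle1* the length-scaled levels differed by 2.57 on the log2 scale, more than the wider spread of 0.27. By coding length the difference was 2.77, but without division by length it turned to -0.76, with *Mdn1* the higher and beyond the same spread.

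Rpf2 and Rrs1 load the smallest ribosomal RNA of the large subunit with its proteins. *Rpf2* had 60.4 ppm and *Rrs1*, a gene with a single exon, had 54.4 ppm by length. The difference of 0.15 on the log2 scale was smaller than the wider spread of 0.28, so the levels of this pair were not told apart by annotated length. By coding length the difference was -0.23, also within the spread, and without division by length it was -0.49, with *Rrs1* the higher and beyond the spread.

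Brix domain proteins and other factors of early particles made up 18 members with a median length-scaled level of 61.5 ppm. *Nsa2*, which is needed for a late nucleolar step, was highest with 204.7 ppm, and *Urb1*, a large scaffold of the early particle, was lowest with 6.47 ppm. *Nsa2* was 0.29 above *Nip7* on the log2 scale by coding length, within the spread of 0.40, and its 2 transcripts had 37.0% and 16.2% of their 31-base words in no other gene, so its level is likewise given as uncertain. *Nip7* had 142.9, *Mak16* had 105.8 and *Rrp1* had 90.8 ppm. That order rests on the division by length: by counts *Mak16* had 9199, *Rrp1* 8237 and *Nip7* 8191. *Rbm28*, with 12863 counts, was above each of these without division by length. *Rrp15*, *Pak1ip1*, *Ebna1bp2*, *Noc2l*, *Rbm28*, *Ppan*, *Nop16*, *Nifk* and *Brix1* lay between 48.0 and 69.4 ppm. *Rpf1* had 38.7, *Noc3l* 29.0, *Rrp1b* 18.4 and *Urb2* 10.6 ppm. The paralogs *Rrp1* and *Rrp1b* thus differed 4.92-fold by annotated length, 2.94-fold by coding length and 2.00-fold without division by length. *Noc2l* and *Noc3l*, partners in 1 complex in yeast, differed 2.18-fold by annotated length. By annotated length both pairs differed by more than the spreads of the genes.

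Isoforms of *Nsa2* and *Nip7* differed in a coding stretch and in the length of their 3′ ends. ENSMUST00000225410.1 of *Nsa2* has 974 bases and held 59.8% by length but 34.9% by counts, and ENSMUST00000073456.8 has 2700 bases and held 40.2% by length. ENSMUST00000170962.2 of *Nip7* has 606 bases and held 73.4% by length but 35.5% by counts, and ENSMUST00000034392.12 has 3036 bases and held 26.6% by length. The leading isoform of both genes therefore depends on the division by length. The coding bases that the shorter isoforms lack are given in capitals.
*Nsa2* ENSMUST00000073456.8, chr13:97131955-97132035, minus strand, 81 bases: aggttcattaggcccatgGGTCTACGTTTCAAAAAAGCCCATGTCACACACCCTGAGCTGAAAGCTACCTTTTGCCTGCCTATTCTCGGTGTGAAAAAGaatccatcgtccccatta
*Nip7* ENSMUST00000034392.12, chr8:107058047-107058187, plus strand, 141 bases: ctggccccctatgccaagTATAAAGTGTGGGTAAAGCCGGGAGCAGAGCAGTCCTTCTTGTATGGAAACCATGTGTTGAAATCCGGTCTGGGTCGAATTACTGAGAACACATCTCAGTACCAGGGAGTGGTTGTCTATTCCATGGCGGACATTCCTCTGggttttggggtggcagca

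Both lengths are multiples of 3 bases, so the reading frame is kept on either side. *Nop16* had transcripts of 790 and 1756 bases with shares of 53.5% and 46.5% by length and 34.1% and 65.9% by counts, so the leading isoform turned here too. They end in 29 and 20 coding bases of their own. ENSMUST00000199079.1 of *Rpf1* has 616 of the 1047 coding bases of the main model and 20 of its own, and held 17.4%.

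The GTPases act as switches that check the particle. *Gnl3*, also named nucleostemin, was highest with 155.3 ppm, and *Gnl2* had 70.9 ppm by length. *Lsg1*, which releases the export adapter in the cytoplasm, was at 40.2 ppm and *Gnl3l*, the paralog of *Gnl3*, at 27.6 ppm. *Gtpbp4* was lowest with 15.3 ppm by length, on an annotated transcript of 8783 bases with 1902 coding bases. Its mean level before division by length was 6141 counts. That lowest place rests on the annotated length: *Lsg1* was below *Gtpbp4* by 0.07 on the log2 scale without division by length and by 0.10 by coding length. On both scales *Lsg1*, *Gnl3l* and *Gtpbp4* were within the spread of each pair, and by coding length *Gnl2* was also not told apart from *Gnl3l* or *Lsg1*. *Gtpbp4* was among the members with the narrowest spread, 0.09 on the log2 scale.

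DEAD-box proteins are helicases that remodel RNA in the particle. *Ddx18* and *Ddx21* were highest, with 78.9 and 74.4 ppm, and did not differ beyond their spread by annotated length. *Ddx21* was the higher by 0.61 on the log2 scale by coding length and by 0.98 without division by length, both beyond the spread of 0.22. On these 2 scales *Ddx18* did not differ from *Ddx27* beyond the spread. *Ddx56*, *Ddx27* and *Ddx24* had 59.6, 57.6 and 51.8 ppm, also within the spread of each pair by annotated length. Without division by length *Ddx56* was the lowest of the 3, 0.37 below *Ddx27* on the log2 scale and beyond the spread. By coding length *Ddx24* was the lowest of them, 0.48 below *Ddx27*, also beyond the spread. *Ddx54* had 33.0 and *Ddx51* 13.2 ppm. *Ddx55* and *Ddx31*, at 9.31 and 9.11 ppm, were lowest and likewise not told apart by annotated length. A second *Ddx24* transcript, ENSMUST00000221211.1, held 19.4% and has a coding end of 65 bases of its own. A second *Ddx27* transcript, ENSMUST00000150571.1, held 16.6% and has 871 of the 2280 coding bases of the main model and 5 of its own. Of the words of the *Ddx18* transcript, 68.4% were also found in *Gm16433*, which was listed with 4.26 counts.

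Methyltransferases modify bases and sugars of the ribosomal RNA. *Nop2* and *Ftsj3* had 82.1 and 81.4 ppm and did not differ beyond their spread, and *Rrp8* had 20.3 ppm. *Rrp8* had 2 transcripts with different coding starts, of 99 and 237 bases. ENSMUST00000033179.13 held 63.1% and ENSMUST00000098148.5 held 36.9%. The latter had the narrowest spread of all member transcripts with at least 100 counts, 0.04 on the log2 scale. Its technical variance exceeded its variance over the libraries.

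Factors of export and of the last steps in the cytoplasm included *Eif6*, the member whose most abundant transcript had the widest spread. *Eif6*, which keeps the subunits from joining too early, had 114.3 ppm, *Mrto4* had 89.9, *Rsl24d1* had 54.9 and *Nmd3*, the export adapter, had 14.4 ppm by length. *Eif6* did not differ from *Mrto4* beyond its spread of 0.57 on the log2 scale by annotated length, but was higher by 0.64 without division by length and by 0.78 by coding length. The annotated *Nmd3* transcript is 9135 bases long with 1509 coding bases, and its mean level before division by length was 6014 counts. *Nmd3* was the lowest of these 4 by coding length too, but without division by length it was higher than *Mrto4* by 0.26 and than *Rsl24d1* by 0.68 on the log2 scale, both beyond the spread of 0.19.

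The most abundant transcripts of the 54 members had a median spread of 0.21 on the log2 scale, from 0.06 to 0.57. Among 6694 protein-coding genes with a leading transcript in the same range of counts, 1074 to 89315, the median spread was 0.17, and the 10th and 90th percentiles were 0.07 and 0.37. Of the members, 35 of 54 lay above that median and 4 lay above the 90th percentile. These 4 were *Eif6* (0.57), *Wdr18* (0.51), *Noc2l* (0.46) and *Nip7* (0.40), followed by *Ppan* (0.36). The narrowest were *Las1l*, *Urb2*, *Gtpbp4*, *Rbm28* and *Gnl2*, from 0.06 to 0.10. By role, the median spread was 0.32 for the PeBoW complex and 0.11 for the GTPases. These spreads are of the leading transcript by length. The leading transcript by counts had 0.15 in *Npm1* and *Wdr12*, 0.08 in *Nsa2*, 0.366 in *Nip7* and 0.34 in *Nop16*. With these, *Nip7* would lie below the 90th percentile of 0.372 and *Nsa2* would be among the narrowest. The PeBoW median would be the 0.26 of *Pes1*.

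Technical variance was a small part of the variance of most main transcripts. It was a median of 1.27% of the variance over the libraries and at most 19.3%, in *Las1l*. Counting error and read assignment were not separated in it. Some minor isoforms were less certain. Second transcripts of *Gnl3l*, *Las1l*, *Nifk* and *Pes1*, each with 104 to 147.7 counts, had spreads of 0.64, 0.56, 0.55 and 0.53 on the log2 scale, and the technical variance reached 49.0% of the variance in *Gnl3l*, 97.3% in *Pes1*, 125.9% in *Nifk* and 138.9% in *Las1l*. A second *Rpf2* transcript in the same range, with 112.1 counts, had a spread of 0.22 and a technical variance of 50.9% of the variance. Among second transcripts that held at least 10% of their gene, it was 72.1% in *Ddx24*, 68.5% in *Pelp1* and 46.9% in *Rpf1*. In *Rrp8* it exceeded the variance, and in the other members with such a transcript it was at most 8.73%, in *Nolc1*. In 6 of the 84 member transcripts the technical variance exceeded the variance over the libraries. Another 3 transcripts, of *Mrto4*, *Rsl24d1* and *Tex10*, had fewer than 10 counts.

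The other lists of ribosome assembly had lower medians by annotated length than the members, and ribosomal proteins a far higher one. The median length-scaled level was 26.4 ppm for 20 other large subunit factors and 34.7 ppm for 29 measured genes of the small subunit processome, against 56.0 for the members. For 48 large subunit ribosomal proteins it was 2019 ppm. These proteins together held 11.7% of the length-scaled total and the members 0.568%, of which *Npm1* was the largest part. The ribosomal protein list was picked by symbol, and its levels ran from *Rpl3l* at 0.610 to *Rplp1* at 8973 ppm, with *Rpl5* at 21.4. Sequence shared with further genes was not examined for the lists other than the members, so the ribosomal protein sum is given as uncertain. The median spread was 0.26 for the other large subunit factors, 0.22 for the processome and 0.17 for the ribosomal proteins, against 0.21 for the members and 0.19 for all protein-coding genes with at least 100 counts. No test between the lists was made.

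**Figure D3:**
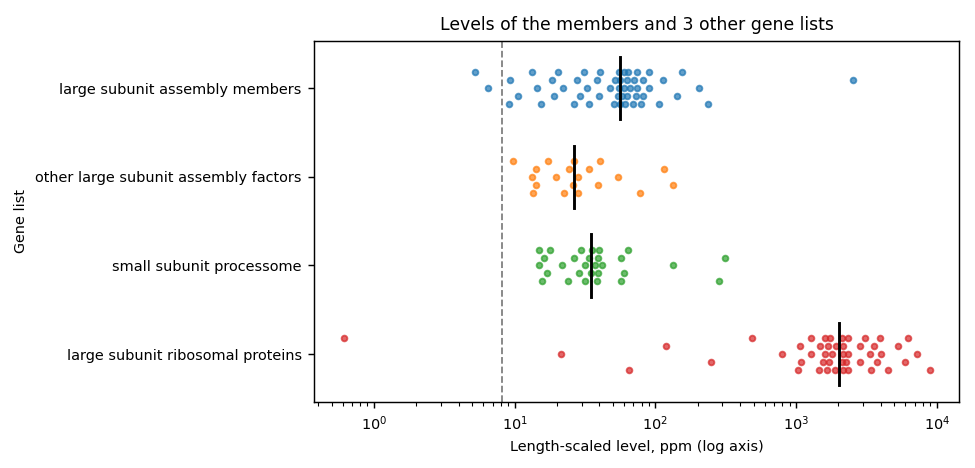
Length-scaled level ppm of each gene on a log axis in the members and 3 other lists, with the list median as a black line and the median protein-coding gene as a dashed line. The medians are 56.0, 26.4, 34.7 and 2019 ppm from top to bottom.

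The members lie on 19 chromosomes, with 7 on chromosome 11 and 6 each on chromosomes 1 and 4. Within 1000 bases of the start of 16 members (29.6%), a protein-coding gene starts on the opposite strand, against 14.9% of all protein-coding genes tested. Examples are *Noc4l*, 34 bases from *Ddx51* and itself a factor of the small subunit, *Rad1* at 71 bases from *Brix1* and *Pbrm1* at 14 bases from *Gnl3*. *Gnl3*, *Ncl* and *Ppan* hold snoRNA genes in the same orientation. In *Gnl3*, *Snord19* was listed with 216.8 counts, *Snord69* with 140.5 and *Gm24916* with 72.1. In *Ncl*, *Snora75* was listed with 108.9 counts and *Snord82* with 17.0, and in *Ppan*, *Gm24067* with 80.1 and *Gm23008* with 62.2. Mature snoRNAs are not polyadenylated, and the libraries were made from polyadenylated RNA.

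The 250 bases before the gene start, from RefSeq on GRCm38.p6, were matched for 45 of the 54 members, with 52 promoters. *Rrs1*, *Bop1*, *Pak1ip1*, *Rpf1*, *Gnl2*, *Eif6*, *Npm1*, *Gnl3l* and *Mak16* had no entry. On both strands, CCGGAAG was present in 25.0% of the members' promoters, against 11.9% of promoters of tested protein-coding genes and 6.91% of all promoters. Shares are of promoters and not of genes, and *Rpf2* held CCGGAAG in overlapping promoters that were counted separately. CACGTG was present in 7.69%, against 7.70% and 6.02%, in *Nmd3*, *Nop2*, *Pelp1* and *Rpf2*. CCAAT was present in 17.3%, against 35.5% and 33.8%, and TATAAA in 5.77%, against 7.93% and 12.4%. The members' promoters had a median of 17.5 CG pairs, against 14 in promoters of tested protein-coding genes. None of the 4 motifs contains another, and a match describes the sequence and does not show binding.

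Most members can be told from other genes by their sequence. Of the 54 most abundant transcripts, 40 had at least 90% of their 31-base words in no other gene, and the median was 97.2%. The share was below 50% for *Npm1*, for *Ddx18* with 27.1% and for *Nsa2* with 37.0%. *Mak16* shared 41.3% of its words with *Tti2*, which had 1440 counts.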

How the data were processed

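RNA-seq of 2 KD and 2 WT libraries was described. Adapter trimming by the authors used BBDuk, and their estimated counts per transcript came from Kallisto and were summarised in Sleuth. The index was not given in the sources used here. The deposited means are natural log values of normalised estimated counts plus 0.5, a scale inferred from Sleuth's default and from technical variance times level, whose median was 0.991 over 3491 transcripts, where log2 values would give 2.08. Other deposited columns, read by their Sleuth names, hold the authors' variance over the libraries and their technical variance. The authors' own effects, standard errors, p-values and q-values of KD against WT, and their gene table, were not used.

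The planned test needed values of single libraries, so no test was made. Levels were the exponential of the mean minus 0.5. Lengths came from GENCODE M21, which matched 98.6% of transcripts by versioned identifier. Genes were named by rule: the highest and lowest member of each role group, members whose second transcript held at least 10%, and the 5 widest and 5 narrowest spreads. The remaining members are given for completeness, and the promoter letters were chosen after the values were seen. The calculation of levels was tried on simulated data, and no outcome is given here. The members and lists were chosen with earlier results of these data known. Python 3.11.15 with pandas 2.3.3 was used.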

Additional observations from a re-analysis of the deposited data

How the results depend on the processing

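No paired analysis was possible because the columns used here hold values pooled over the libraries. For the same reason, the planned test of KD against WT was not run in edgeR or DESeq2, with or without its filter, with a replicate block or with a library left out. Levels were recomputed relative to the median protein-coding gene. The members' median was 2.77 on the log2 scale with division by annotated length. It moved to 2.36 without division by length, to 2.43 without transcripts under a mean of 10, where the median protein-coding gene itself rises from 8.19 to 10.4 ppm, and to 2.33 by coding length, an alternative chosen after seeing the data. It moved by less than the spread with 150 bases taken off each length, also chosen after seeing the data, as did each of the 54 members. Protein-coding transcripts alone could change no member, since all 84 tested transcripts of the members are protein-coding. With the most abundant transcript alone the median member moved by less than the spread too, but 45 of the 54 members moved by more, among them *Npm1* from 8.28 to 7.29, and the median protein-coding gene fell to 6.54 ppm. The cause of the moves by length was not tested. Single members crossed the median gene. Without division by length, *Urb1* (0.92) and *Mdn1* (1.91) lay above it. Without low transcripts, *Ddx55* (-0.16) and *Ddx31* (-0.19) lay below it, and by coding length *Urb2* (-0.30), *Ddx55* (-0.20) and *Ddx31* (-0.20) did. The number of members with a second transcript of at least 10% was 11, or 10 by counts, without *Pelp1*. The median spread was 0.21 on the log2 scale with and without the technical variance.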
